A study of Mus musculus with 8 samples.

Results

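The regulatory neighbourhood of 8 genes of insulin and PI3K signalling and its Foxo branch was followed in paused mouse embryonic stem cells: the receptor genes Insr and Igf1r, the adaptor genes Irs1 and Irs2, the adaptor inhibitor gene Grb14, the transcription factor genes Foxo1 and Foxo3, and Sesn1. Chromatin accessibility was read by ATAC-seq, which tags open DNA with adapters carried by the Tn5 transposase. A peak belonged to a gene where its centre lay inside the gene's GRCm38 span or within 50 kb of it, which gave 138 of the 134407 peaks in the deposited table. The wild-type embryonic stem cell line E14 was cultured on gelatin in serum and LIF, either as control (4 libraries) or with 200 nM INK128, an mTOR kinase inhibitor, for 24 h (4 libraries, called paused), and 50000 live cells went into each library. All 8 libraries thus come from 1 wild-type line in serum and LIF, and the labels do not say whether replicates were separate cultures, so that p-values measure only the spread between these samples.

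Insulin and IGF receptors are tyrosine kinases that recruit the Irs adaptors, which bring PI3K to the membrane and switch on Akt. Akt phosphorylates Foxo factors and keeps them out of the nucleus. mTOR complex 1, downstream of Akt, dampens Irs proteins, and Foxo factors in several tissues raise transcription of receptor, Irs and sestrin genes, so that the pathway is known for feedback when mTOR or Akt is inhibited. ATAC-seq reads open chromatin and not transcript or protein levels, and in a bulk library more open chromatin per cell and more cells with open chromatin cannot be told apart.

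The reads in peaks ranged from 4434037 to 21161767 per library. Control replicate 1 was the deepest, with a median of 91 reads per peak against 18 to 29 in the other 7. Of 9 embryonic stem cell marker genes, 8 had a peak within 2 kb of a listed start (Dppa5a had none), with summed values of 1745 to 1888 in control and 2011 to 2241 in paused libraries. Of 5 fibroblast markers 2 had such a peak and Col1a1, Thy1 and Postn had none (sums 121 to 132 and 115 to 144), and of 5 primitive endoderm markers 1 did, with none at Gata6, Gata4, Sox17 or Pdgfra (126 to 159 and 139 to 163). Of 4 trophoblast markers 3 had one (321 to 392 and 359 to 419; none at Hand1), and so did all 3 neural markers (471 to 551 and 484 to 629). The lists differ in length, so their sums cannot be set against each other. The mean per listed gene was 217 for embryonic stem cell and 182 for neural markers. It was 93.2 for trophoblast, 28.8 for primitive endoderm and 25.4 for fibroblast markers. The part of other cell types in the results was not tested.

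The promoter sequences are shown first for the starts that a peak overlaps, since these hold some of the strongest peaks of the set and none of them passed the test. RefSeq promoters (build GRCm38.p6) matched 7 of the 8 genes, with 8 start sites, as Sesn1 has 2; Insr was not matched. Of the 8 windows of 250 bases before a start, 4 were overlapped by a peak, by 93 bases at Foxo1, 33 at Irs2, 32 at Grb14 and 138 at the downstream start of Sesn1. They are printed on the strand of the gene, in lower case, with capitals for matches to 6 motifs on either strand: the Foxo element GTAAACA, the E-box CACGTG, the GC box GGGCGG, the CCAAT box, the AP-1 site TGANTCA and, by name, the NRF1 motif. Matches of 1 motif may overlap each other.
Foxo1, chr3:52268087-52268336, plus strand: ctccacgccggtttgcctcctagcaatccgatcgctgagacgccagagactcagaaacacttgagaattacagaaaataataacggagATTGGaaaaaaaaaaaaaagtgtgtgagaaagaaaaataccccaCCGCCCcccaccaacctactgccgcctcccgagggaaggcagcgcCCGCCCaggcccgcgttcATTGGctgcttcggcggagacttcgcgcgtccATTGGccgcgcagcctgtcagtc
Irs2, chr8:11008930-11009179, minus strand: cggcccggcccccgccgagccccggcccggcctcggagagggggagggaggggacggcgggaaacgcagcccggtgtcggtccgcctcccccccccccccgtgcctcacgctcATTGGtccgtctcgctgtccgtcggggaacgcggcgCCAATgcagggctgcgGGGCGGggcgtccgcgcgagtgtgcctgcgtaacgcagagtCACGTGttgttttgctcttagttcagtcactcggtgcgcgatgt
Grb14, chr2:65022767-65023016, minus strand: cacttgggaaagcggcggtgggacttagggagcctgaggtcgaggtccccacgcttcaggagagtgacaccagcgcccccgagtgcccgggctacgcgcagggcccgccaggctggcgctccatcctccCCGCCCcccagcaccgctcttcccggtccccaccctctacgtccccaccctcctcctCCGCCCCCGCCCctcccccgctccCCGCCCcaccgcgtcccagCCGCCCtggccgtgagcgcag
Sesn1, chr10:41887189-41887438, plus strand: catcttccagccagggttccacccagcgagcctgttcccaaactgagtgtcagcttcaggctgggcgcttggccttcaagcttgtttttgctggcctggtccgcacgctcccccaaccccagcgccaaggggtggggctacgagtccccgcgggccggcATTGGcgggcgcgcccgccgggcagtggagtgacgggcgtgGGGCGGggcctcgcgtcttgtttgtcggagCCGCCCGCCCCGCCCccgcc
The Irs2 window has 1 E-box, 1 GC box and 2 CCAAT matches. The Foxo1 window has 2 GC boxes and 3 CCAAT matches, the Grb14 window 5 GC boxes, and the Sesn1 window 4 GC boxes and 1 CCAAT match. Over all 8 windows, a GC box was present in 8 (42.6% of 21262 promoters of protein-coding genes), CCAAT in 4 (35.4%) and an E-box in 2, those of Irs1 and Irs2 (6.63%). The Foxo element (2.62% of promoters), the NRF1 site (1.07%) and the AP-1 site (6.13%) had no match in the 8 windows. G and C made up 56.0% of the Foxo1 window and between 70.0% and 77.6% of the other 7 windows, against a median of 55.6% over all promoters.

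The peaks nearest to the gene starts were among the stronger ones of the table. The deposited value is the number of reads in a peak divided by 1 factor per library, and all peaks have the same width, so that values may be compared between peaks. Within 2 kb of a listed start, or for Insr of a gene end, 9 peaks lay at the 84.0th to 99.6th percentile of peak strength. By mean value over the 8 libraries they ran from Foxo3 (405), the downstream start of Sesn1 (313), the end of Insr (270) and the upstream start of Sesn1 (255) through Igf1r and Foxo1 (both 239) and Irs2 (191) to Irs1 (120) and Grb14 (100). The ranges over the 8 libraries overlapped for each neighbouring pair in this order, except that the lowest value at Irs2 (153) was above the highest at Irs1 (134). All 9 had a positive log2 change, with a median of 0.17, beside a median of 0.18 for all peaks whose mean value reached 50. In edgeR with TMM their median was 0.07, and the change at Irs1 was negative (-0.05). By limma-trend 1 of them, at Igf1r, was called higher (11.1%, where 11.0% of all tested peaks were).

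A peak or sum is called where its Benjamini-Hochberg adjusted p, over all features tested, is under 0.05. In limma-trend on log2(value + 1), 133 of the 138 peaks reached the mean value of 10 needed to be tested, and 12 rose and 3 fell in paused cells. That is 9.02% and 2.26% of them, beside 11.0% and 2.91% of all 127402 peaks tested, and these shares are near those of the whole table. The median log2 change was 0.11 in the set and 0.10 over all tested peaks, and single changes are to be read against that shift. The groups did not overlap, with every paused value above every control value, at 10 of the 133 peaks (7.52%, against 13.0% of all tested peaks). They did not overlap in the other direction at 5 (3.76%, against 4.36%). In edgeR with TMM scaling of the recovered reads, 7 peaks of the set were called higher and 3 lower, where 7.13% and 5.54% of all peaks were called. Without control replicate 3 the counts were 6 and 1, without paused replicate 2 they were 7 and 1, and without paused replicate 4 they were 7 and 3. Over all tested peaks these omissions gave 10825 and 2317, 10338 and 2734, and 8963 and 2607. With all libraries the whole table had 13958 higher and 3702 lower.

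Of the 15 called peaks, 11 lay outside the spans of the 8 genes, 6 of these inside other genes. Of 73 tested peaks inside the spans, 3 rose (4.11%) and 1 fell (1.37%), with a median log2 change of 0.06. Of 60 tested peaks in the flanks, 9 rose (15.0%) and 2 fell (3.33%), with a median of 0.16. Of all tested peaks in the table, 11.0% rose and 2.91% fell. The flanking peaks were also stronger, with a median value of 38.6 against 23.0. Of the 12 rises, 6 were among the 20 peaks whose nearest gene end belongs to another gene (30.0% of these). They were 3 at Cep57l1, 1 at Armc2 and 2 at Pgpep1l. The 118 peaks nearest to an end of their own gene, 113 of them tested, had 6 rises (5.31%) and 3 falls (2.65%). The 20 peaks nearer to another gene were stronger, with a median value of 68.0 against 26.8. All peaks whose mean value reached 50 had a median log2 change of 0.18, against 0.10 for all tested peaks. The shares of calls in such classes over the whole table were not counted.

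**Figure D1:**
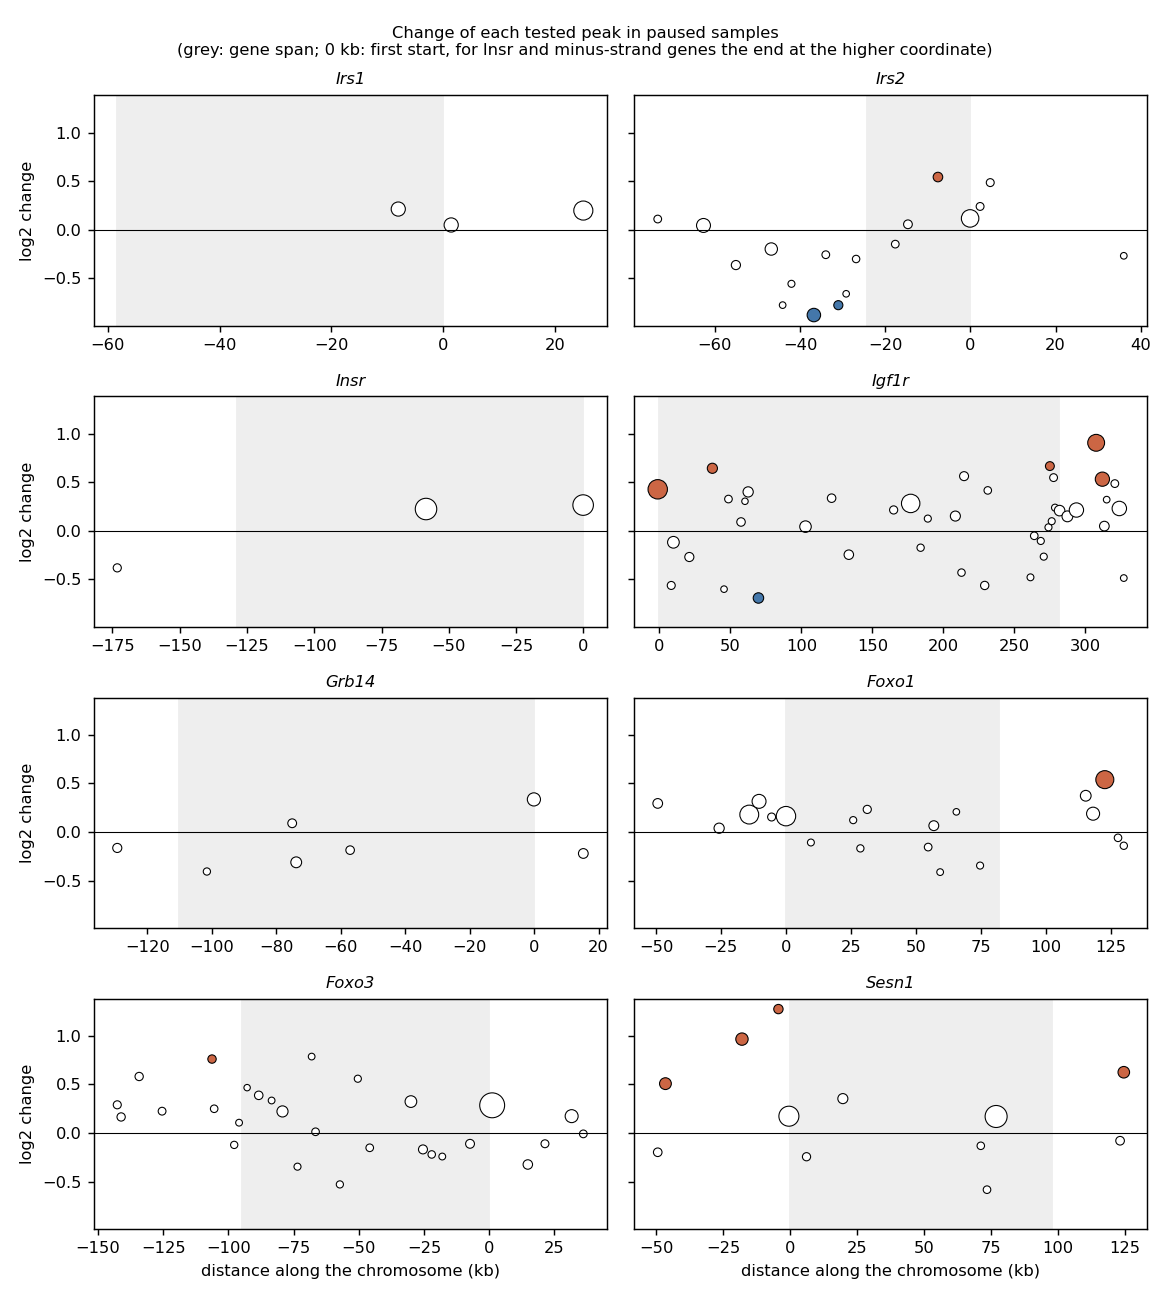
Log2 change of each tested peak in paused against control libraries (y axis) by its distance along the chromosome (x axis, kb) from the start of the gene, or for Insr from the end at the higher coordinate. Grey marks the gene span, the circle area grows with the mean value, orange is called higher, blue called lower, white not called; the 2 blue circles of Irs2 lie to the left of its span, and 4 orange circles of Sesn1 lie outside its span.

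Insr encodes the insulin receptor and spans chr8:3150922-3279649. It had 4 peaks, of which 3 were tested and 0 called by limma-trend or by edgeR with TMM; 2 had an unadjusted limma-trend p under 0.05. The peak at the higher-coordinate end of the gene (chr8:3279480-3279680, 69 bp inside) had values of 215, 264, 232 and 270 in control replicates 1 to 4 and of 305, 279, 279 and 314 in paused replicates 1 to 4. Every paused value was above every control value, yet the log2 change of 0.27 (SE 0.11) did not pass (limma-trend adjusted p = 0.0939). The strongest peak (chr8:3221090-3221290), inside the gene, went from 274 ± 21.9 to 320 ± 24.0 (SD, n = 4 each; log2 change 0.22, limma-trend adjusted p = 0.150). A weak peak 44469 bp below the span (chr8:3106353-3106553) was lower in every paused library, at 31.3 ± 6.85 and 23.5 ± 1.77 (SD, n = 4), and did not pass either (log2 change -0.38, limma-trend adjusted p = 0.255).

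Igf1r encodes the receptor for insulin-like growth factors and is the longest of the 8 genes (chr7:67952257-68233668, plus strand). It had 42 peaks, all tested, of which 5 rose and 1 fell. The peak 1220 bp upstream of its start (chr7:67950937-67951137) had values of 174, 229, 188 and 219 in control and 240, 226, 337 and 296 in paused libraries, so that 1 paused library lay within the control range. It rose by a log2 change of 0.43 (SE 0.12, limma-trend adjusted p = 0.0156). The call held in 10 of 18 alternatives, with adjusted p from 0.00468 to 0.191. It was lost with TMM, total reads or loess correction in limma-trend and in DESeq2, and without control replicates 1 or 3 or paused replicates 3 or 4. A peak 37273 bp inside the gene (chr7:67989430-67989630) rose from 40.2 ± 6.37 to 64.5 ± 15.9 (SD, n = 4; log2 change 0.64, limma-trend adjusted p = 0.0157), with paused replicate 4, at 41.0, inside the control range. It too was called in 10 of 18 alternatives (adjusted p from 0.00291 to 0.182), and lost the call under these 4 settings and edgeR with TMM, and without control replicate 3 or paused replicates 1 or 2. Further along, at 69710 bp from the start (chr7:68021867-68022067), the values were 71.9, 53.8, 88.1 and 64.7 in control and 47.3, 23.7, 52.8 and 52.7 in paused libraries. All paused values were below all control values there, and the fall of -0.69 (SE 0.20, limma-trend adjusted p = 0.0150) was called in 16 of 18 alternatives, but not without control replicate 3 or paused replicate 2 (adjusted p from 0.00225 to 0.111).

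The strongest change of the Igf1r window was beyond the 3' end of the gene, in Pgpep1l, which encodes a peptidase-like protein. At 26163 bp downstream of Igf1r (chr7:68259731-68259931) the values were 104, 124, 129 and 132 in control and 213, 203, 241 and 262 in paused libraries. No library overlapped, and the log2 change of 0.91 (SE 0.12, limma-trend adjusted p = 2.98e-06) remained called in all 18 alternatives (adjusted p from 1.78e-08 to 0.000150). A second peak further on (chr7:68264125-68264325), 259 bp from an end of Pgpep1l, rose from 97.8 ± 3.73 to 142 ± 14.5 (SD, n = 4; log2 change 0.53, limma-trend adjusted p = 0.00347). It lost its call after loess correction and in DESeq2 (adjusted p from 0.00160 to 0.0822 over 18 alternatives). The sixth called peak (chr7:68227136-68227336), near the 3' end of Igf1r and named here after its values were seen, rose by 0.67 (limma-trend adjusted p = 0.0383), and was called in 7 of 17 alternatives (adjusted p from 0.0164 to 0.365), which did not include any rescaling, edgeR or DESeq2.

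The Irs adaptors differed from each other in the number of peaks and in what these did. Irs1 (chr1:82233105-82291439, minus strand) had 3 peaks, and 0 passed in limma-trend or in edgeR with TMM, nor did any have an unadjusted limma-trend p under 0.05. The peak 1441 bp upstream of its start (chr1:82292780-82292980) had values of 122, 129, 112 and 106 in control and 134, 96.2, 124 and 134 in paused libraries (log2 change 0.05 with SE 0.13; limma-trend adjusted p = 0.842). The groups overlapped widely there. The strongest peak of the window (chr1:82316435-82316635), 78 bp from an end of the neighbouring Rhbdd1, went from 214 ± 24.5 to 246 ± 34.2 (SD, n = 4; log2 change 0.20, limma-trend adjusted p = 0.270).

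Irs2 (chr8:10984681-11008929, minus strand) is the shortest of the 8 genes and had 19 peaks, the densest coverage, with 15.3 peaks per 100 kb of window. Of 18 tested, 1 rose and 2 fell. The peak at its start (chr8:11008762-11008962), over the promoter printed above, had values of 160, 222, 181 and 166 in control and 226, 186, 230 and 153 in paused libraries. The groups overlapped (log2 change 0.12 with SE 0.13; limma-trend adjusted p = 0.584). A peak 12489 bp downstream of the gene (chr8:10972092-10972292) had values of 139, 122, 134 and 153 in control and 69.2, 55.2, 86.9 and 89.0 in paused libraries, with a clear gap between the groups. It fell by 0.88 on the log2 scale (log2 change -0.88 with SE 0.14; limma-trend adjusted p = 5.92e-05) and was called in all 18 alternatives (adjusted p from 5.57e-07 to 0.000852). Its ratio to the start peak of the same library, which no scaling can alter, was 0.864, 0.548, 0.738 and 0.920 in control and 0.306, 0.297, 0.378 and 0.580 in paused libraries. These ratios overlapped, since paused replicate 4 (0.580) was above control replicate 2 (0.548).

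Other peaks downstream of Irs2 had the same direction. The 9 downstream peaks nearest to the gene, from 2578 to 30791 bp away, all had a negative log2 change, between -0.88 and -0.20, a stretch picked out after its values were seen. The 2 beyond it, 38396 and 49137 bp away, had changes of 0.04 and 0.11. Mean values in the stretch ran from 11.8 to 106, and the weakest peaks, at 11.8 and 12.2, had as few as 4 and 3 reads in a library. Within the stretch 1 other peak was called: chr8:10977831-10978031, 6750 bp downstream, with 46.0, 31.1, 71.1 and 44.1 in control and 31.2, 11.0, 37.2 and 37.5 in paused libraries. Its log2 change was -0.78 (SE 0.26, limma-trend adjusted p = 0.0399), and the call was lost in DESeq2 and without control replicates 1, 3 or 4 or paused replicate 2 (adjusted p from 0.00604 to 0.263 over 17 alternatives). Of all 18 tested Irs2 peaks, 11 had a negative change (61.1%), whereas 61.3% of all tested peaks in the table had a positive one. The median log2 change at Irs2 was -0.23. The Irs2 peaks were weaker, with a median value of 24.3 against 32.3 over all peaks. Peaks whose mean value reached 50 had a median change of 0.18, against 0.10 for all tested peaks.

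The single rise at Irs2 lay inside the gene (chr8:11001212-11001412), 7617 bp from the start. It went from 36.0 ± 6.21 to 53.2 ± 10.7 (SD, n = 4), a log2 change of 0.54 ± 0.19 (SE; limma-trend adjusted p = 0.0443). It was called in 6 of 17 alternatives (adjusted p from 0.0262 to 0.314), and TMM, total reads, loess, edgeR with TMM, DESeq2 or leaving out any library other than control replicate 2 or paused replicate 1 ended the call.

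Grb14 encodes an adaptor that binds the activated insulin receptor and inhibits its kinase (chr2:64912476-65022766, minus strand). It had 7 peaks, and 0 passed in limma-trend or in edgeR with TMM, while 1, at the start, had an unadjusted limma-trend p under 0.05. The peak at its start (chr2:65022598-65022798) had values of 82.6, 92.0, 94.8 and 80.8 in control and 104, 94.6, 154 and 98.4 in paused libraries. It was the strongest of the gene and had its largest positive change (log2 change 0.33 with SE 0.14; limma-trend adjusted p = 0.113), with paused replicate 3 well above the rest. Of the other 6 peaks, 5 had a negative change, the largest at chr2:64921137-64921337 (20.6 ± 6.05 to 15.4 ± 4.86, SD, n = 4; log2 change -0.41, limma-trend adjusted p = 0.372).

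**Figure D2:**
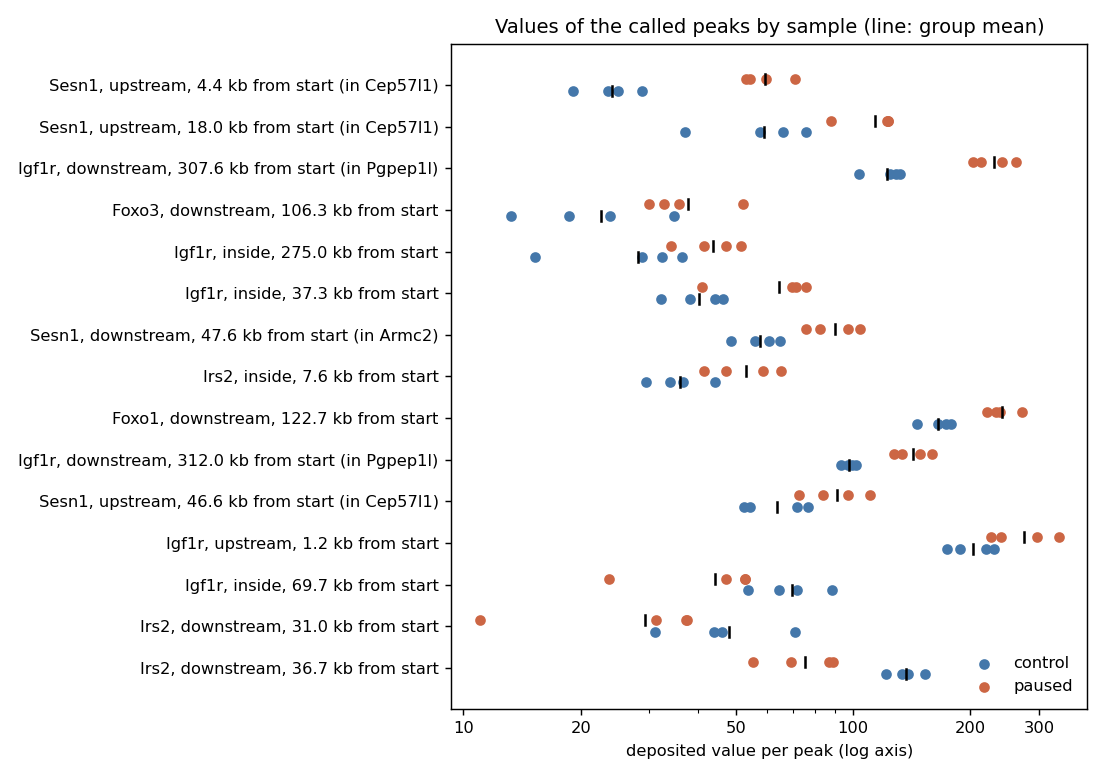
Deposited value (x axis, log scale) of the 15 called peaks in the 4 control (blue) and 4 paused (orange) libraries, with a line at each group mean, ordered by log2 change. The lowest row is the peak downstream of Irs2, with all paused values at or below 89.0 and all control values at or above 122; the top row is the peak in Cep57l1 near Sesn1, with paused values of 53.1 to 71.0 and control values of 19.1 to 28.8.

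Foxo1 and Foxo3 encode forkhead transcription factors that Akt holds in the cytoplasm when growth factors are present. Foxo1 (chr3:52268337-52350109, plus strand) had 23 peaks, 20 of them tested, and 1 rose. Its start peak (chr3:52268244-52268444), 7 bp from the start and over the promoter printed above, had values of 193, 279, 215 and 217 in control and 248, 244, 261 and 251 in paused libraries. The change was within the control spread (log2 change 0.16 with SE 0.11; limma-trend adjusted p = 0.357). A peak 40885 bp downstream of the gene (chr3:52390894-52391094) had values of 165, 178, 146 and 173 in control and 233, 221, 272 and 238 in paused libraries, without overlap. It rose by a log2 change of 0.54 (SE 0.11, limma-trend adjusted p = 0.00120) and was called in all 18 alternatives (adjusted p from 0.000436 to 0.0338). Its ratio to the start peak was 0.857, 0.637, 0.677 and 0.797 in control and 0.940, 0.903, 1.04 and 0.949 in paused libraries, again without overlap. No other protein-coding gene had an end nearer to this peak.

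Foxo3 (chr10:42181845-42276695, minus strand) had the strongest peak of the whole set. It lies 1160 bp upstream of the start (chr10:42277755-42277955), with 330, 358, 369 and 401 in control and 404, 423, 490 and 463 in paused libraries. Every paused value was above every control value, but the log2 change of 0.29 (SE 0.10) just missed the threshold (limma-trend adjusted p = 0.0537). In the authors' deposited table its log2 fold is 0.26 with an FDR of 0.0414, and its log2 group means are 8.80 in paused and 8.51 in control. The limma-trend adjusted p was 0.231 with TMM, 0.376 with total reads and 0.610 after loess. It was 0.226 in edgeR with TMM and 0.335 in DESeq2. The peak passed in limma-trend at a mean value of at least 50 (0.0476), with a replicate block (0.0150) or without paused replicate 1 (0.0379), and in edgeR with the deposited factors (0.0449). All peaks whose mean value reached 50 had a median log2 change of 0.18. Of the 28 Foxo3 peaks, all tested, the single call was a weak peak 11460 bp downstream (chr10:42170285-42170485), with 23.9, 34.6, 18.6 and 13.2 in control and 30.0, 52.1, 35.7 and 32.8 in paused libraries. The groups overlapped; it rose by 0.76 (SE 0.24, limma-trend adjusted p = 0.0309), and was called in 8 of 17 alternatives (adjusted p from 0.00758 to 0.279). The call was lost with TMM (limma-trend or edgeR), total reads, loess and DESeq2, and without control replicates 3 or 4 or paused replicates 2 or 4.

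Sesn1 encodes sestrin 1, a leucine- and stress-responsive inhibitor of mTOR complex 1 signalling and a known target of Foxo factors and p53. The gene (chr10:41810574-41908436, plus strand) has 2 listed starts, and both have a strong peak that was not called. The upstream one (chr10:41809949-41810149), 525 bp from that start and 181 bp from an end of the neighbouring Cep57l1, had values of 257, 257, 224 and 222 in control and 306, 244, 254 and 279 in paused libraries (log2 change 0.17, limma-trend adjusted p = 0.301). The downstream one (chr10:41887301-41887501), over the promoter printed above, had values of 256, 336, 295 and 291 in control and 306, 301, 375 and 342 in paused libraries (log2 change 0.17, limma-trend adjusted p = 0.306). Both pairs of groups overlapped. None of the 5 peaks inside the gene was called, and 3 of them had a negative change.

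The 4 rises of the Sesn1 window all lay inside neighbouring genes. The largest change of the whole set was 4434 bp upstream of Sesn1, inside Cep57l1, a gene for a centrosomal protein (chr10:41806040-41806240). Its values were 23.5, 19.1, 28.8 and 25.0 in control and 53.1, 71.0, 54.3 and 59.8 in paused libraries, a rise with a log2 change of 1.27 (SE 0.19, limma-trend adjusted p = 1.66e-05) and the only change of at least 2-fold among the 133 tested peaks. A second peak in Cep57l1, 18042 bp upstream (chr10:41792432-41792632), had 75.7, 37.0, 57.6 and 66.1 in control and 87.7, 123, 123 and 122 in paused libraries (log2 change 0.97 with SE 0.17; limma-trend adjusted p = 0.000115). Neither overlapped between groups, and they were called in all 17 and all 18 alternatives that tested them, with adjusted p up to 0.000346 and 0.00424. The ratio of the first peak to the downstream start peak was 0.0569 to 0.0977 in control and 0.145 to 0.236 in paused libraries. Another Cep57l1 peak (chr10:41763866-41764066) rose by 0.51 (limma-trend adjusted p = 0.0248) and was called in 9 of 18 alternatives (adjusted p from 0.0130 to 0.30), without a call under TMM (limma-trend or edgeR), total reads, loess or DESeq2, or when control replicates 3 or 4 or paused replicates 2 or 4 were left out. A peak inside Armc2, 26619 bp downstream of Sesn1 (chr10:41934955-41935155), rose from 57.6 ± 7.10 to 89.6 ± 13.0 (SD, n = 4; log2 change 0.63, limma-trend adjusted p = 0.00423) and lost its call after loess correction and in DESeq2 (adjusted p from 0.00210 to 0.0967).

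Gene by gene, the values of all peaks in a window were summed per library, and limma-trend on log2(sum + 1) was run over the 20221 protein-coding genes with a mean sum of at least 10. Windows of neighbouring genes share peaks. Of the 8 genes, 5 sums were called higher (Insr, Igf1r, Foxo1, Foxo3 and Sesn1) and 0 lower, but 50.0% of all gene sums were called higher and 0.747% lower, and the median change of all gene sums was 0.15. The sums of these 5 genes did not overlap between groups, but the share of all gene sums without overlap was not counted. After TMM rescaling, Igf1r and Sesn1 were called higher and Irs2 lower (10.6% and 1.85% of all gene sums).

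**Figure D3:**
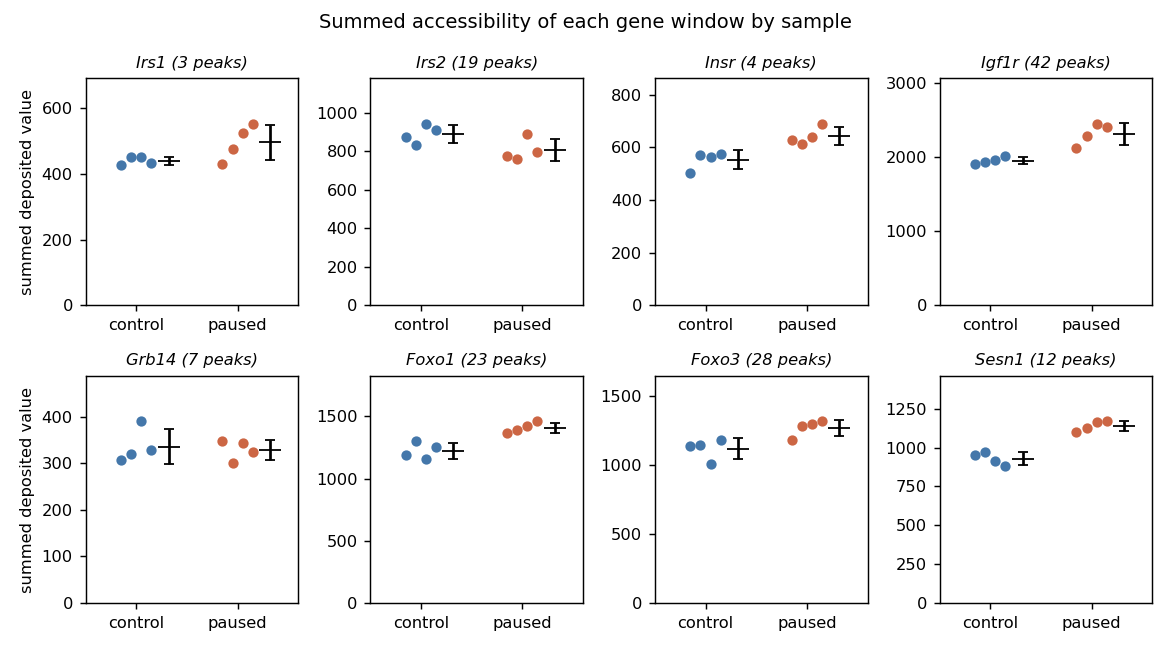
Summed peak values of each gene window (y axis) in each control (blue) and paused (orange) library, with the group mean and SD in black. Irs2 is the gene whose paused mean lies clearly below its control mean (807 against 891), while the groups do not overlap for Insr, Igf1r, Foxo1, Foxo3 and Sesn1. The share of all gene sums without overlap was not counted.

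The largest of these was at Sesn1, where the sums were 954, 971, 911 and 879 in control and 1102, 1125, 1162 and 1168 in paused libraries (log2 change 0.29 with SE 0.05; limma-trend adjusted p = 0.000198; 0.15 above the median of all genes). With only the peaks nearest to an end of Sesn1, the change was 0.12 (adjusted p = 0.233). Igf1r went from 1950 ± 49.8 to 2311 ± 148 (SD, n = 4; log2 change 0.24, limma-trend adjusted p = 0.000344), and with its nearest peaks only the change was 0.16 (adjusted p = 0.0198). Scaled by all reads in peaks, neither sum was called: the Sesn1 value was 0.14 (limma-trend adjusted p = 0.0692) and the Igf1r value 0.09 (0.126). Foxo1 changed by 0.20 (limma-trend adjusted p = 0.00245), Insr by 0.22 (0.0113) and Foxo3 by 0.18 (0.00935), which is 0.04 to 0.07 above the median of all genes. Without control replicate 1 or paused replicate 4, Insr lost its call, and without control replicate 3, Foxo3 lost it (adjusted p = 0.0569, 0.0570 and 0.0515). Foxo1 lost its call when only peaks within 10 kb of the gene were summed (adjusted p = 0.508). That window leaves out the peak 40885 bp downstream and others, among them those 14112 and 10350 bp upstream (mean values 225 and 115). Which of these peaks the call rested on was not tested.

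For Irs2 the change was negative. Its sums were 874, 835, 943 and 913 in control and 778, 759, 892 and 799 in paused libraries, with 1 paused library inside the control range. The log2 change was -0.14 (SE 0.06, limma-trend adjusted p = 0.0513), which is 0.29 below the median of all genes. It was -0.25 with TMM (adjusted p = 0.00729) and -0.30 when libraries were scaled by all their reads in peaks (adjusted p = 0.000979). It was called lower as well without control replicate 2 or paused replicate 3 (adjusted p = 0.0329 and 0.0130). Within 10 kb of the gene the change was 0.03 (adjusted p = 0.760); that window leaves out 8 of the 19 peaks, the strong downstream one and 4 others of the stretch among them. The ratio of the Irs2 sum to the Igf1r sum in the same library, which does not depend on scaling and was chosen after the values were seen, was 0.461, 0.433, 0.482 and 0.453 in control and 0.367, 0.334, 0.365 and 0.332 in paused libraries. These ratios did not overlap. Irs1 (log2 change 0.16, adjusted p = 0.0764) and Grb14 (-0.03, adjusted p = 0.803) did not pass in limma-trend, and their groups overlapped.

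**Figure D4:**
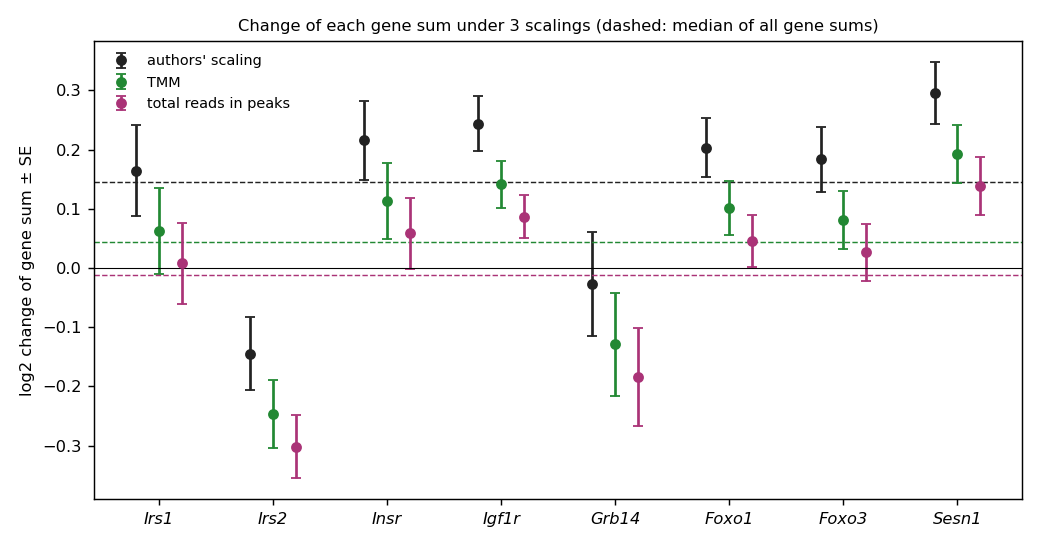
Log2 change of each gene sum with its SE (y axis) for the 8 genes (x axis) under the authors' scaling (black), TMM (green) and total reads in peaks (purple), with dashed lines at the median of all gene sums (0.15, 0.04 and -0.01). Irs2 and Grb14 lie below the dashed line of their colour under each scaling, and Irs2 is the lower of both.

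The wider pathway was read from a list of 65 further genes. Besides genes of insulin and IGF signalling, the list holds 6 further receptor tyrosine kinases and 19 Foxo family and target genes. Their windows held 1029 tested peaks, of which 80 (7.77%) were called higher and 42 (4.08%) lower, with a median log2 change of 0.06, beside 11.0% and 2.91% of all tested peaks. In edgeR with TMM the balance turned, with 44 higher and 71 lower, where 7.13% and 5.54% of all tested peaks were called. The whole table moved in the same direction, from 13958 higher and 3702 lower in limma-trend to 9084 and 7058 in edgeR with TMM. Of the 65 gene sums, 33 were called higher and 0 lower, with a median change of 0.14 beside 0.15 for all genes. After TMM rescaling 4 of the 65 were called higher by limma-trend, a smaller share than the 10.6% of all gene sums. They were Sos1, an exchange factor for Ras (log2 change 0.22 with TMM, adjusted p = 0.00641), and Kit, a receptor tyrosine kinase (0.27, adjusted p = 0.0115). The others were Klf15 (0.16, adjusted p = 0.0196) and Pdk4, a kinase that inhibits pyruvate dehydrogenase (0.27, adjusted p = 0.0173). By group, with the authors' scaling, sums rose for 4 of 7 ligand and binding protein genes, 6 of 11 adaptors, 4 of 6 PI3K subunits and 4 of 7 genes of the Akt arm. They rose for 4 of 9 inhibitors, 1 of 6 receptor tyrosine kinases and 10 of 19 Foxo family and target genes, where 50.0% of all gene sums rose. With TMM the sums that rose numbered 1 among the adaptors, 1 among the receptor tyrosine kinases, 2 among the Foxo family and targets, and 0 in the other 4 groups.

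In the authors' deposited table, 9 of the 138 peaks have an FDR under 0.05 with a higher value in paused cells and 2 with a lower one. The share of all peaks under that FDR was not counted, so these counts cannot be read against the whole table. Of these 11 calls, 10 were also called here from the same values, and the eleventh is the Foxo3 peak upstream of the start. The log2 fold in the authors' deposited table is 1.09 at the Cep57l1 peak near Sesn1 (chr10:41806040-41806240), 0.88 at the Pgpep1l peak (chr7:68259731-68259931) and -0.74 at the peak downstream of Irs2 (chr8:10972092-10972292). These folds are smaller in size than the gaps between the log2 group means of that table. In paused and control those means are 5.90 and 4.59, 7.85 and 6.93, and 6.23 and 7.10. The folds are therefore not on the same footing as the log2 changes computed here.

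The genes whose sums ran most alike over the 8 libraries were found by Pearson's correlation of log2(sum + 1), as a description, since all genes share the libraries and their scaling. For Irs2 the most alike of 17083 genes with at least 5 peaks was S100a2 (r = 0.989, with 25 genes above 0.9), and for Grb14 it was Mettl21c (0.961, with 4 genes above 0.9). Igf1r ran most like Tmtc1 (0.997) and Sesn1 most like Unkl (0.997), but 3481 and 2130 genes were above 0.9 for these. The genes most like Foxo1, Foxo3, Insr and Irs1 were Pigu (0.995), Slc2a6 (0.989), Gorasp2 (0.986) and Rab13 (0.982).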

How the data were processed

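ATAC-seq was made from 4 control and 4 paused libraries of E14 cells; per the labels, both ends were read over 150 bp. Per the submitters' processing notes, the authors used FastQC, Trim Galore, Bowtie2 2.4.1, MACS3 3.0.3 and DiffBind 3.16.0 with the build mm10, with no settings or order given, and no handling of the Tn5 offset is stated in the sources used here. What the authors deposited per library is a signal, the reads in each peak of 1 common set over a single factor. This was worked out from the values, of which 100% in each column were whole multiples of 1 step within 0.0051, so that whole reads were recovered. The authors also deposited log2 mean values and folds, and p-values with FDR, of their own comparison; a value from it is always credited to that table. No column of the 8 libraries went unused.

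A mean value of 10 or more was needed for a peak to be tested, which was done with limma-trend (limma 3.58.1, R 4.3.3) on log2(value + 1) without covariates, and p-values were adjusted over all 127402. The added 1 shrinks the folds of weak peaks, yet against edgeR with the deposited factors some were larger here and others smaller. At the Foxo3 peak chr10:42170285-42170485 the log2 change was 0.76 here and 0.65 in edgeR. At the Igf1r peak chr7:68000750-68000950 it was 0.33 here and 0.41 in edgeR. In a simulated table of 126080 tested peaks, it called 90 of 100 peaks altered by log2 1, 99 of 100 altered by 1.5, and 4 that were not altered. The altered peaks were all drawn from those at or above the median strength, and no shift between the groups was simulated. These figures therefore do not cover weaker peaks or a table with the median shift of 0.10 seen here. Alternatives were edgeR 4.0.16 (quasi-likelihood) on the recovered reads with TMM or the deposited factors, DESeq2 1.42.0, other scalings, a loess correction on peak strength (span 0.3), other filters, pseudocounts and windows, a replicate block and each library left out. With the deposited factors edgeR called 21054 peaks. Library depth is the reads in peaks; a peak with 0 reads allows up to 3 reads, worth 1.04 in the deepest library and 5.08 in the shallowest (control replicate 3), which covers counting error only.

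Gene spans came from a RefSeq table (GRCm38.p6; 21883 protein-coding genes), and starts from the RefSeq promoter table. A peak lay within 1 kb of 41.7% of gene ends, against 17.8% and 17.9% after a shift of the peaks by 50000 bp. Exons and introns were not analysed here. Peaks were named by rule: for each gene the peak nearest to a start within 2 kb, the strongest, up to 5 called, and the largest rise and fall. The genes, lists and rules were chosen with earlier results of these data known. The result of 1 gene of the wider pathway list is not reported here.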

Additional observations from a re-analysis of the deposited data

Results flagged for a closer look

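Of 80 sets of 4 libraries, for depth, the 8 gene sums and the 31 named peaks in either condition, 6 had 1 library whose gap to the others, relative to the range of its group, was over Dixon's 95% critical value; chance flags about 1 group in 20, or 5%. Control replicate 1 had 21161767 reads in peaks, above the 4434037 to 6262445 of the other control libraries. It also had the lowest Insr sum (502, with the others at 566 to 576) and the highest value at the Irs1 peak 8031 bp from the start, chr1:82283308-82283508 (126, with the others at 101 to 105). Paused replicate 1 had 87.7 at the Cep57l1 peak 18042 bp upstream of Sesn1, below the other paused libraries at 122 to 123. Paused replicate 3 had 154 at the start peak of Grb14, above the others at 94.6 to 104. Paused replicate 4 had 41.0 at the Igf1r peak 37273 bp from the start, below the others at 69.8 to 75.7. Without control replicate 1, 10 peaks of the set were called higher and 2 lower (10638 and 2321 over all peaks).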

How the results depend on the processing

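Over the 18 alternatives for single peaks, 5 of the 15 called peaks kept their call in all that tested them. Peaks of the set called higher numbered 6 with TMM rescaling and 6 with total reads in limma-trend, 4 after loess correction, 7 in edgeR with TMM, 4 in DESeq2, 5 within 10 kb and 6 for peaks nearest to their own gene; leaving out 1 library gave 6 to 13 higher and 1 to 4 lower. Over all peaks, calls were 7631, 5743, 6497, 9084 and 3902 higher under the first 5 of these settings, and 6828 lower with total reads, 7058 in edgeR with TMM, 1892 in DESeq2 and 751 at a mean of at least 50; without 1 library they were 8963 to 12696 higher and 2301 to 3893 lower. Of the 8 gene sums, 2 were higher and 1 lower with TMM, 0 higher and 1 lower with total reads, and 4 to 6 higher and 0 to 1 lower without 1 library. Deviations of control and paused libraries with the same replicate number correlated at 0.08, 0.04, 0.13 and 0.04 for numbers 1 to 4. All 16 pairs of a control and a paused library ran from -0.10 to 0.13, and number 3 was the highest of them. These weak correlations do not settle whether the numbers pair the samples. With a replicate block 16 peaks of the set were higher and 3 lower (17371 and 4623 over all peaks), and 6 gene sums higher and 1 lower.

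Directions turned for peaks without a call: the Irs1 start peak (-0.052 with TMM in limma-trend, -0.053 in edgeR with TMM, -0.051 in DESeq2, -0.11 with total reads, -0.15 after loess), the Irs1 peak at Rhbdd1 (-0.01 after loess), the Irs2 start peak (-0.04 with total reads, -0.089 after loess), and after loess the Foxo1 start peak (-0.045) and the Sesn1 start peaks (-0.035 and -0.038). The Irs2 sum turned within 10 kb (0.032), and the Grb14 sum within 10 kb (0.027) and without control replicate 3 or paused replicate 2, ranging from -0.068 to 0.046 with 1 library left out. The cause was not tested.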
